A study of Mus musculus with 12 samples.

Results

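The 71 mouse mitochondrial ribosomal protein genes described here were every gene whose symbol starts with Mrpl or Mrps plus a digit and that had a probe set annotated with that symbol alone. They were 71 of the 22180 genes measured, with 43 large subunit genes (Mrpl) and 28 small subunit genes (Mrps), and came from 80 probe sets. For the 9 genes with more than 1 probe set, the brightest one (by its mean on the 12 arrays) was taken. Genes entered by their symbol and not by an expression value, and no filter on low values was applied, so all 71 were tested. The family itself was chosen with earlier results of these data known. Another 7 genes of the family (Mrpl30, Mrpl33, Mrpl41, Mrpl43, Mrpl44, Mrpl53 and Mrps6) had only probe sets shared with another gene symbol and were not used.

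The study profiled total RNA from whole embryonic mouse lungs at E14.5 (the labels' embryonic stage) on 12 single-channel Affymetrix arrays. The Yy1 mutants (Yy1flox/flox;Shh+/Cre), the Dicer mutants (Dicerflox/flox;Shh+/Cre) and the controls (Shh+/Cre) had 4 specimens each, and all 3 genotypes carried 1 Cre allele at Shh. In the lung, Shh is a gene of the airway epithelium, so the floxed genes are removed there while the mesenchyme, vessels and blood cells keep them. Nothing in the labels says whether specimens of a genotype came from separate animals or litters, so the p-values measure only the spread between these samples.

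Mitochondria carry their own small genome and a dedicated ribosome to translate it, and its protein products are core subunits of the respiratory chain and of ATP synthase. The ribosomal RNAs are encoded in the mitochondrial genome, whereas all the proteins are encoded in the nucleus, made in the cytosol and imported. Many of them descend from bacterial ribosomal proteins and others were added in the mitochondrial lineage. YY1 is a zinc finger transcription factor that binds near the start sites of many nuclear genes for mitochondrial proteins, and DICER1 cuts microRNA precursors.

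Values are log2 expression as deposited, 1 unit being a doubling, and differences are log2 with their standard error (SE). The array medians lay between 5.99 and 6.08. Yy1 averaged 8.84 ± 0.10 in Yy1 mutants and 9.03 ± 0.07 in controls (SD, n = 4 each; difference -0.19, limma adjusted p = 0.125), and Dicer1 averaged 8.20 ± 0.12 in Dicer mutants and 8.81 ± 0.16 in controls (difference -0.61, adjusted p = 0.0013). The lung epithelial marker Nkx2-1 averaged 8.36 ± 0.22 in Yy1 mutants, 8.85 ± 0.19 in Dicer mutants and 9.28 ± 0.12 in controls (SD, n = 4 each), and 11 of 13 epithelial markers fell in Yy1 mutants (6.61% of all genes were called there) and 9 of 13 in Dicer mutants (8.75% of all genes). In Dicer mutants 2 epithelial markers without a call lay above the controls on all 4 arrays, Sox9 (0.22, adjusted p = 0.148) and Epcam (0.11, adjusted p = 0.336). The mean of the 13 per array was 7.98 to 8.34 in Yy1 mutants, 8.33 to 8.54 in Dicer mutants and 8.88 to 9.12 in controls. Smooth muscle markers fell (6 of 7 in each mutant), macrophage and leukocyte markers rose (7 of 10 in Yy1 mutants and 8 of 10 in Dicer mutants), and 1 of 7 endothelial markers rose in Yy1 mutants and 7 of 7 in Dicer mutants. Of 11 mesenchyme markers 5 rose in each mutant, and their mean per array was 9.48 to 9.60 in Yy1 mutants, 9.38 to 9.52 in Dicer mutants and 9.09 to 9.21 in controls. The mean of 11 cell cycle genes was 9.86 to 9.95 in Yy1 mutants, 9.89 to 9.94 in Dicer mutants and 9.99 to 10.15 in controls. The mean of 8 heart markers was spread widely in the mutants, at 6.51 to 7.56 in Yy1 mutants and 6.41 to 8.01 in Dicer mutants, against 6.81 to 7.0 in controls. Y-linked genes were raised on 3 arrays (Yy1 mutants 2 and 3 and Dicer mutant 4) and on 0 control arrays. The part of any of these in the results below was not tested, and in bulk RNA fewer cells of a type and less RNA per cell cannot be told apart.

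The genes of the mitochondrial ribosome were expressed in all 3 genotypes at closely similar levels. Averaged over its 43 genes, the large subunit stood at 7.78, 7.65, 7.82 and 7.78 in the 4 Yy1 mutants, at 7.75, 7.78, 7.70 and 7.72 in the 4 Dicer mutants and at 7.95, 7.81, 7.83 and 7.76 in the 4 controls. The small subunit, over 28 genes, stood at 7.70, 7.61, 7.70 and 7.71 in Yy1 mutants, at 7.66, 7.69, 7.60 and 7.62 in Dicer mutants and at 7.82, 7.72, 7.71 and 7.65 in controls. The mutant means were slightly below the control mean for both subunits, and both mutants overlapped the controls. Control 1 was the highest array for both subunits, and Yy1 mutant 2 was the lowest array for the large subunit.

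**Figure D1:**
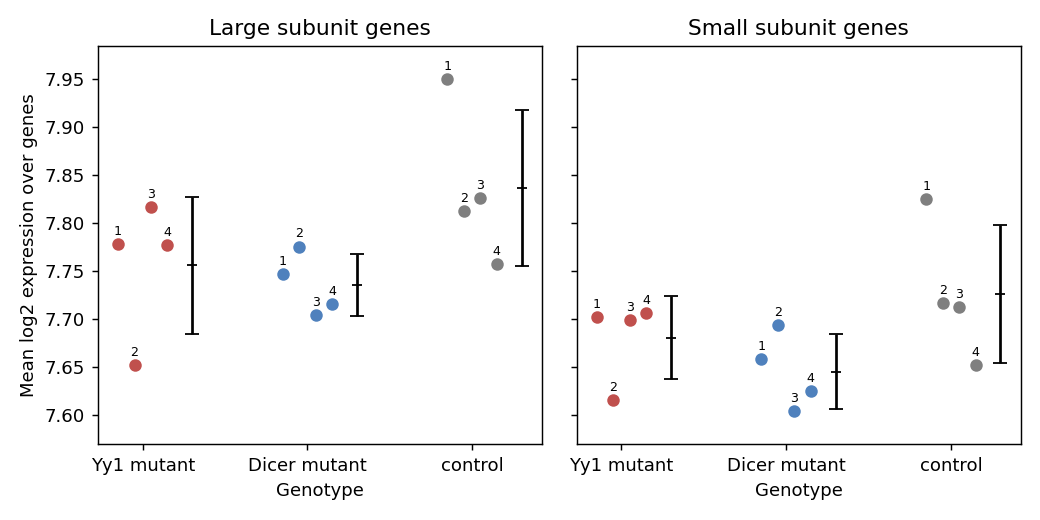
Mean log2 expression (y axis) of the 43 large subunit genes (left panel) and the 28 small subunit genes (right panel) on each array, by genotype (x axis). Points are arrays with their replicate number, and the bar beside each group is the mean ± SD of 4 arrays. Control 1 stands highest at 7.95 and 7.82, and the groups overlap in both panels.

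Loss of epithelial Yy1 was set against the control to ask how far genes of the mitochondrial ribosome moved with it. In Yy1 mutants 2 of the 71 genes fell and 0 rose at an adjusted p under 0.05 (limma, Benjamini-Hochberg over all genes). That is 2.82% of the members, against a background of 6.61% of all genes, or 3.84% lower. Both were large subunit genes, Mrpl35 and Mrpl52, while 0 of 28 small subunit genes were called and 2 of those 28 had an unadjusted p under 0.05. At an unadjusted p under 0.05 stood 5 of 71 (7.04%), all lower, against 19.2% of all genes in both directions and 10.2% lower. All but 5 members lay above the median level of all genes. Of the genes above that level 27.1% stood at an unadjusted p under 0.05 and 10.5% were called.

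Mrpl35, the mitochondrial relative of bacterial ribosomal protein L35, was measured by probe set 17467656. Its log2 values were 8.03, 7.94, 7.93 and 7.80 in Yy1 mutants, 8.12, 7.99, 8.0 and 8.0 in Dicer mutants and 8.21, 8.19, 8.11 and 8.14 in controls. Every Yy1 mutant was below every control. The difference was -0.23 (SE 0.0650, 1.18-fold lower, limma adjusted p = 0.0489), and the Dicer mutants differed from controls by -0.13 (adjusted p = 0.253). The Mrpl35 call was lost in 10 of 12 fits that each left out 1 array, with adjusted p of 0.0633 to 0.135; it was kept without Yy1 mutant 1 (0.0437) or without Dicer mutant 1 (0.0482).

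Mrpl52, a large subunit protein with no bacterial relative, was measured by probe set 17300273. It had 9.40, 9.22, 9.46 and 9.37 in Yy1 mutants, 9.44, 9.45, 9.51 and 9.50 in Dicer mutants and 9.77, 9.68, 9.56 and 9.53 in controls. The Yy1 mutants and the Dicer mutants were both below all controls, and Yy1 mutant 2 was the lowest array. The difference in Yy1 mutants was -0.27 (SE 0.0714, 1.21-fold lower, limma adjusted p = 0.0356), and in Dicer mutants it was -0.16 (adjusted p = 0.201). The Mrpl52 call was lost in 7 of 12 fits that each left out 1 array (controls 1 and 2, Yy1 mutants 1, 2 and 4, and Dicer mutants 3 and 4), with adjusted p of 0.0508 to 0.102.

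Next in order, without passing the threshold, came the large subunit genes Mrpl9 and Mrpl18 and the small subunit genes Mrps27, Mrps18b and Mrps7. Mrps27, a helical-repeat protein of the small subunit, had 7.70, 7.64, 7.61 and 7.71 in Yy1 mutants and 7.94, 7.99, 7.89 and 7.73 in controls. The 4 Yy1 mutants lay below the 4 controls by a narrow margin, and the difference was -0.22 (SE 0.0700, limma adjusted p = 0.0879). Mrpl9 differed by -0.26 (SE 0.0775, adjusted p = 0.0629), Mrpl18 by -0.21 (adjusted p = 0.266) and Mrps7 by -0.17 (adjusted p = 0.362). At the other end, Mrps16 and Mrps31 had the largest positive differences, 0.12 (adjusted p = 0.498) and 0.10 (adjusted p = 0.415). In 4 members (5.63%) the Yy1 mutants lay wholly on one side of the controls, against 12.6% of all genes. These were Mrpl35, Mrpl52, Mrps27 and Mrps18b, each lower, as were 7.05% of all genes.

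Below the level of single calls, the family leaned downward in Yy1 mutants. The difference was negative in 54 of 71 members (76.1%), against 49.5% of all genes, and the median member differed by -0.07, against 0.00 for all genes. The median was also -0.07 over large subunit genes and -0.06 over small subunit genes. This lean rested partly on single arrays. The median member differed by -0.02 without control 1 and by -0.04 without Yy1 mutant 2. It differed by -0.03 once the 3 arrays high in Y-linked genes were left out. That fit had 0 members called and 5 with an unadjusted p under 0.05, and the share of all genes called fell to 2.73%.

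**Figure D2:**
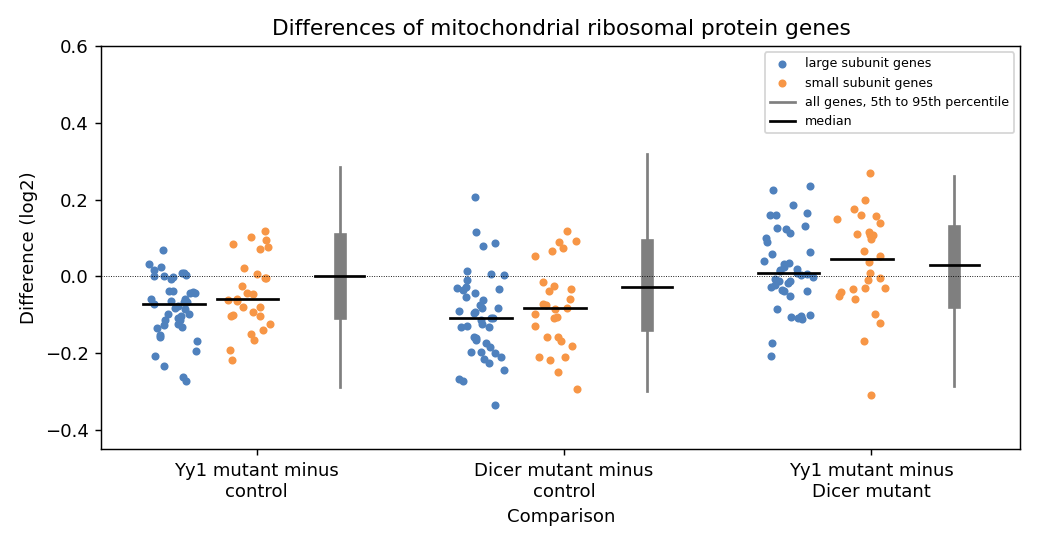
Difference in log2 expression (y axis) of each mitochondrial ribosomal protein gene in the 3 comparisons (x axis), with large subunit genes in blue and small subunit genes in orange. Black lines are medians, and the grey bars give the 5th to 95th percentile of all genes (thin) and the middle 50% (thick). Both subunits sit slightly below 0 in the comparisons with the control and stay within the spread of all genes apart from single points.

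The start regions of 3 genes are shown because Mrpl35 and Mrpl52 were the genes called in Yy1 mutants and Mrps27 had the smallest p of the small subunit there. They run from 250 bases before to 50 bases after the RefSeq start (GRCm38.p6) on the strand of the gene. Mrpl35 lies at chr6:71823735-71824034 on the minus strand, Mrpl52 at chr14:54426659-54426958 on the plus strand and Mrps27 at chr13:99344536-99344835 on the plus strand. Capitals mark the YY1 motif AAGATGGC and the Ets motif CCGGAAGT, either of them read on either strand.
Mrpl35: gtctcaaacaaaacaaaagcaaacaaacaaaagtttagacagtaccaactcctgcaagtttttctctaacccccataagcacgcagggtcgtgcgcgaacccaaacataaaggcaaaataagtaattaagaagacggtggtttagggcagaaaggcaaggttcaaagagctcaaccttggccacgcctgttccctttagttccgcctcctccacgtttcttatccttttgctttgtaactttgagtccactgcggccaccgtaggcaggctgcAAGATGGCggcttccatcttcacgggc
Mrpl52: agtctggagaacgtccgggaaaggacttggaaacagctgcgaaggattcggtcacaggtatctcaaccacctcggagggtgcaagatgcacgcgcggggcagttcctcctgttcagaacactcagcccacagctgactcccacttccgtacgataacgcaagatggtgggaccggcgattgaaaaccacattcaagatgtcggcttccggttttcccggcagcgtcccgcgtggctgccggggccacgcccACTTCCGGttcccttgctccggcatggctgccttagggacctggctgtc
Mrps27: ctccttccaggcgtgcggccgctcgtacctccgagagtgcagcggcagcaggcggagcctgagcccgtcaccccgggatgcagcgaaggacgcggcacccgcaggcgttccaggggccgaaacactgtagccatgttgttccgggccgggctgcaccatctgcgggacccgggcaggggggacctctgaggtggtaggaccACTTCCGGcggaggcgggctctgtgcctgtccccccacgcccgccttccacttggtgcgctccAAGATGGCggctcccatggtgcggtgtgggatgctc
Mrpl35 held 1 copy of the YY1 motif, Mrpl52 held 1 copy of the Ets motif on the opposite strand, and Mrps27 held 1 of each. A match of letters is a description of the sequence and not a binding site.

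Loss of epithelial Dicer was set against the same control arrays. In Dicer mutants 2 of the 71 genes fell and 0 rose, 2.82% of members against a background of 8.75% of all genes, or 3.97% lower. These were Mrpl11 in the large subunit and Mrps25 in the small subunit. At an unadjusted p under 0.05 stood 17 of 71 members (23.9%), against 22.3% of all genes. All 17 were lower, against 12.1% of all genes that were lower at that threshold. Of the 11090 genes above the median level 31.1% stood at that threshold, 1724 of them lower, and 13.9% were called.

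Mrpl11 encodes a protein at the base of the large subunit stalk, where translation factors bind, and was measured by probe set 17356314. Its values were 7.42, 7.46, 7.42 and 7.58 in Dicer mutants, 7.71, 7.53, 7.71 and 7.87 in Yy1 mutants and 7.70, 7.76, 7.85 and 7.91 in controls. The Dicer mutants were below every control, while the Yy1 mutants overlapped the controls. The difference in Dicer mutants was -0.33 (SE 0.0795, 1.26-fold lower, limma adjusted p = 0.0182), the largest fall of any member in either mutant. The Mrpl11 call missed the threshold when control 3 (0.0539), control 4 (0.0523) or Dicer mutant 3 (0.0554) was left out, and was kept in the other 9 fits that left out 1 array.

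Mrps25, a small subunit protein of the mitochondrial lineage, was measured by probe set 17469089. It had 7.73, 7.85, 7.70 and 7.82 in Dicer mutants, 7.96, 8.05, 7.87 and 7.85 in Yy1 mutants and 8.05, 8.09, 8.03 and 7.92 in controls. The Dicer mutants were again below all controls, and the Yy1 mutants overlapped both groups. The difference was -0.25 (SE 0.0682, 1.19-fold lower, limma adjusted p = 0.0368). The Mrps25 call was lost in 8 of 12 fits that each left out 1 array (controls 1, 2 and 3, Yy1 mutants 1 and 3, and Dicer mutants 1, 3 and 4), with adjusted p of 0.0502 to 0.108.

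Several members followed without a call. Mrps17 had 7.94, 8.04, 7.98 and 8.27 in Dicer mutants and 8.44, 8.51, 8.26 and 8.19 in controls, so 1 Dicer mutant overlapped the controls. Its difference was -0.29 (SE 0.0922, limma adjusted p = 0.0675). Mrpl21 differed by -0.24 (adjusted p = 0.0857), Mrpl19 by -0.20 (adjusted p = 0.0858), Mrpl4 by -0.20 (adjusted p = 0.0907) and Mrpl10 by -0.20 (adjusted p = 0.0991). In the order of p among small subunit genes, Mrps34 (-0.21, adjusted p = 0.144) and Mrps18a (-0.18, adjusted p = 0.173) came next.

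Mrpl32 stood at the opposite end in Dicer mutants. It encodes a large subunit protein that the inner membrane protease containing Spg7 trims before assembly in mice and yeast. Its values were 7.37, 7.42, 7.40 and 7.42 in Dicer mutants, 7.41, 6.98, 7.24 and 7.28 in Yy1 mutants and 7.25, 7.35, 7.23 and 6.95 in controls. All Dicer mutants were above all controls by a small margin, but the difference of 0.21 (SE 0.0981) had a limma adjusted p of 0.235. Counting such separations, 9 members were wholly below the controls in Dicer mutants and 1, Mrpl32, wholly above, together 14.1% against 16.0% of all genes (8.45% below).

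The lean of the family in Dicer mutants was of the same order. The difference was negative in 58 of 71 members (81.7%), against 57.2% of all genes, and the median member differed by -0.09, against -0.03 for all genes. The median was -0.11 over large and -0.08 over small subunit genes. It was -0.06 over all members without control 1 and -0.10 once the 3 arrays high in Y-linked genes were left out. In that last fit Mrpl11 was the only member called (limma adjusted p = 0.0280), and 4.40% of all genes were called. The comparisons of each mutant with the control share the 4 control arrays, so a control array that stands high lowers both.

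**Figure D3:**
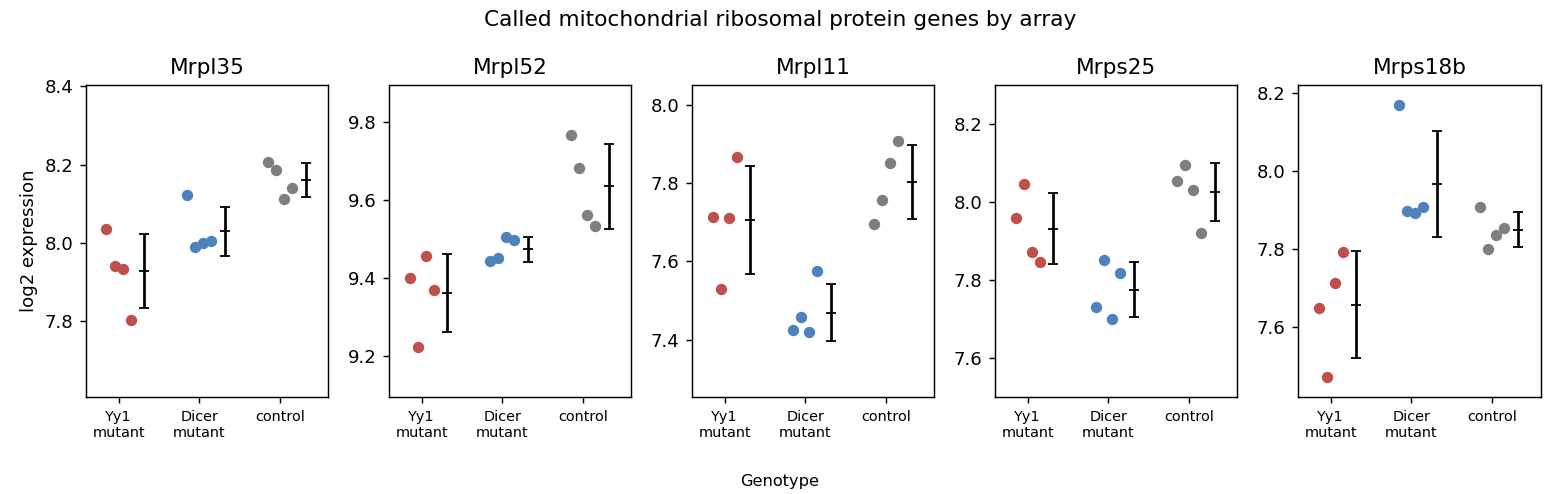
Log2 expression (y axis) of the 5 genes called in any comparison on each array, by genotype (x axis), with the mean ± SD of 4 arrays beside each group. Each panel spans 0.8 log2 units. Mrpl35 and Mrpl52 are lowest in Yy1 mutants, Mrpl11 and Mrps25 in Dicer mutants, and Mrps18b is lower in Yy1 than in Dicer mutants.

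Set directly against each other, the mutants differed in 1 of 71 members, 1.41% against a background of 4.96% of all genes, or 3.39% lower. The gene was Mrps18b, 1 of 3 mammalian relatives of the bacterial small subunit protein S18. On its chosen probe set (17385483) it had 7.65, 7.47, 7.71 and 7.79 in Yy1 mutants, 8.17, 7.90, 7.89 and 7.91 in Dicer mutants and 7.91, 7.80, 7.84 and 7.85 in controls. The Yy1 mutants were wholly below the Dicer mutants, with Dicer mutant 1 above all other arrays. The difference was -0.31 (SE 0.0831, 1.24-fold lower in Yy1 mutants, limma adjusted p = 0.0495). Neither mutant passed against the control, with -0.19 in Yy1 mutants (adjusted p = 0.220) and 0.12 in Dicer mutants (adjusted p = 0.454).

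A second probe set of Mrps18b (17344497), which averaged 7.82 over all arrays like the chosen one, had 7.69, 7.49, 7.75 and 7.74 in Yy1 mutants, 7.84, 7.94, 7.81 and 7.89 in Dicer mutants and 8.13, 7.85, 7.94 and 7.78 in controls. There too the Yy1 mutants were below all Dicer mutants, by -0.21 on average, but the Dicer mutants did not stand above the controls (-0.06). With the mean of both probe sets the difference between the mutants was -0.26 and the call was lost (adjusted p = 0.0768). The Mrps18b call was also lost in 11 of 12 fits that each left out 1 array, with adjusted p of 0.0558 to 0.116, and kept only without Yy1 mutant 4. The other relatives differed little between the mutants, Mrps18a by 0.14 (adjusted p = 0.372) and Mrps18c by 0.07 (adjusted p = 0.720).

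Elsewhere in this comparison 40 of 71 members were higher and 31 (43.7%) lower in Yy1 than in Dicer mutants, where 41.4% of all genes were lower, and the median member differed by 0.01, against 0.03 for all genes. At an unadjusted p under 0.05 stood 7 members (9.86%), 6 higher and 1 lower, against 17.9% of all genes, or 8.89% lower. In 5 members (7.04%) the Yy1 mutants lay wholly on one side of the Dicer mutants, against 13.8% of all genes. They were above for Mrpl10, Mrpl19, Mrpl4 and Mrpl57 and below for Mrps18b, against 7.19% of all genes below. Mrpl10, which anchors the stalk, was closest to the threshold among them. It had 9.08, 9.13, 9.10 and 8.94 in Yy1 mutants, 8.80, 8.88, 8.88 and 8.78 in Dicer mutants and 9.16, 9.06, 9.04 and 8.90 in controls, a difference between the mutants of 0.22 (SE 0.0697, limma adjusted p = 0.0932). Every Yy1 mutant was above every Dicer mutant for Mrpl10. The other stalk genes had wider spreads. Mrpl11 differed between the mutants by 0.24 (adjusted p = 0.121) and Mrpl12, the mobile stalk protein, by 0.16 (adjusted p = 0.523).

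The small number of calls came with narrow intervals. In all 3 comparisons the 95% interval of every one of the 71 members lay within 1.5-fold either way, against 91.7% of all genes for Yy1 mutants, 90.8% for Dicer mutants and 92.4% between the mutants. The furthest bounds of any member were 1.35-fold lower and 1.23-fold higher in Yy1 mutants, 1.43-fold lower and 1.34-fold higher in Dicer mutants, and 1.40-fold lower and 1.38-fold higher between the mutants. The intervals are per gene and not adjusted for the number of genes, and they describe whole lung RNA, of which epithelium is one part. For comparison on the same arrays, the 13 epithelial markers had a median difference of -0.88 in Yy1 mutants. Of their intervals 2 lay within 1.5-fold, and the one furthest below 0 reached 7.24-fold lower. Those markers were chosen for 1 cell type, so they do not show how a change confined to epithelium would appear in the members.

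**Figure D4:**
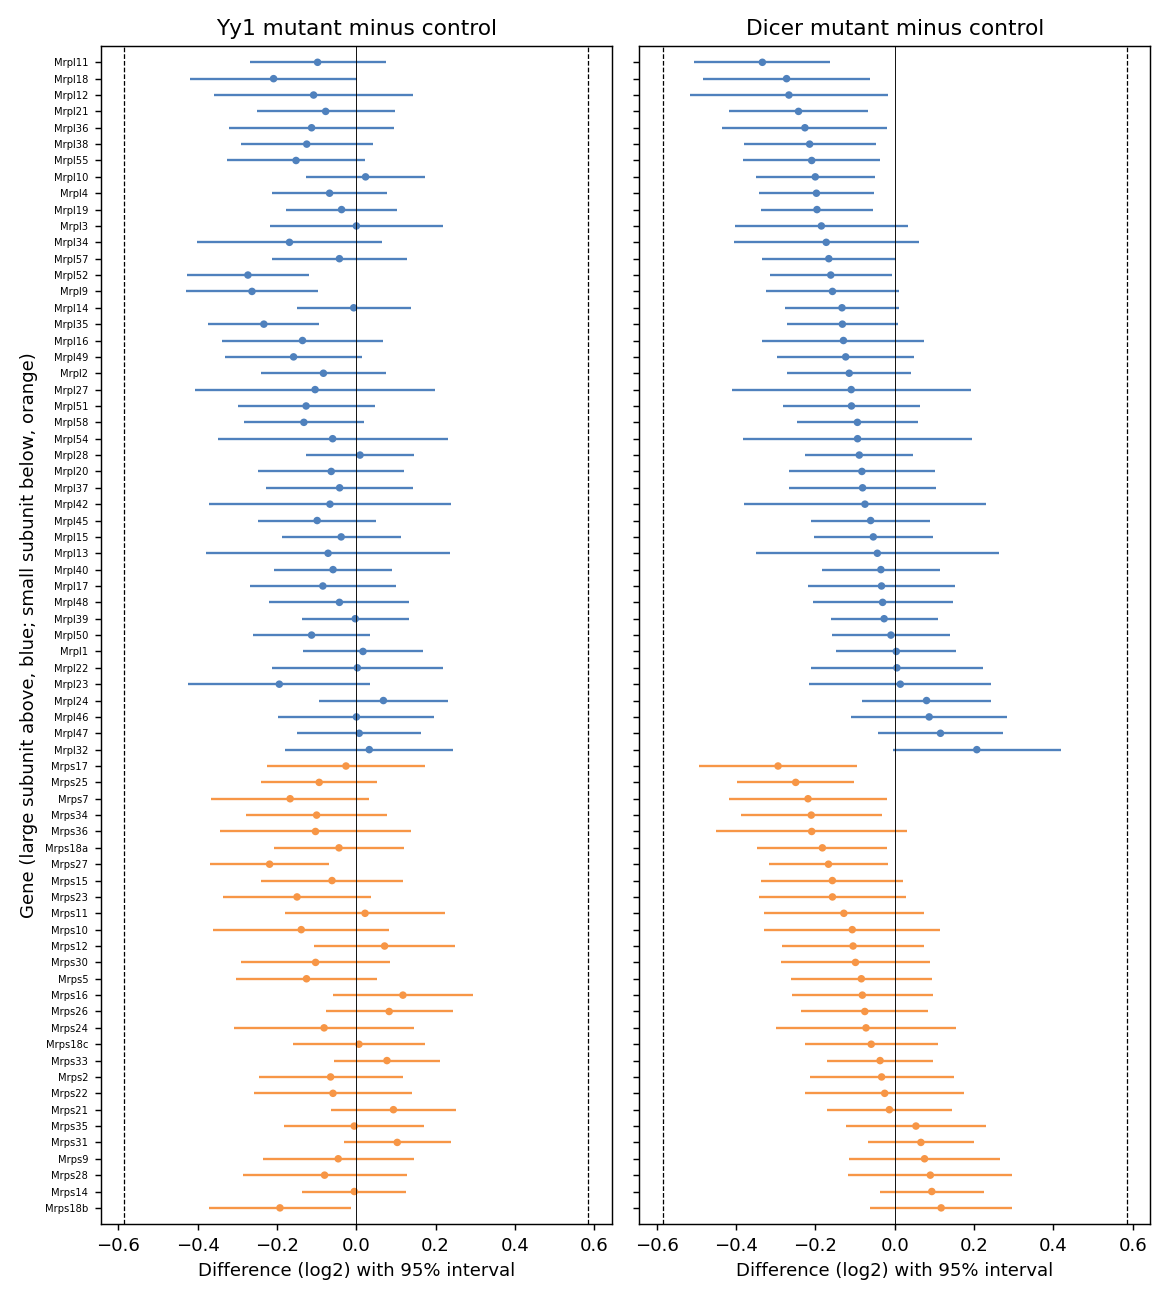
Difference in log2 expression with its unadjusted 95% interval (x axis) for each of the 71 genes (y axis), in Yy1 mutants (left) and Dicer mutants (right) against controls. Large subunit genes are blue, small subunit genes are orange, both ordered by the difference in Dicer mutants, and dashed lines mark 1.5-fold either way. No interval crosses a dashed line.

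Both subunits leaned downward, and the mean of the large subunit fell slightly further than that of the small subunit in each mutant. This gap between the subunits was not tested. The mean of large subunit genes minus that of small subunit genes on the same array was 0.08 ± 0.03 in Yy1 mutants, 0.09 ± 0.01 in Dicer mutants and 0.11 ± 0.01 in controls (SD, n = 4 each). The Yy1 mutant arrays stood at 0.08, 0.04, 0.12 and 0.07, and the controls ran between 0.10 and 0.13. Only Yy1 mutant 3 reached the range of the controls, and the other Yy1 mutants lay below it. The Dicer mutant arrays lay between 0.08 and 0.10 and overlapped the lowest control. As medians of the gene differences, large minus small was -0.01 in Yy1 mutants, -0.03 in Dicer mutants and -0.04 between the mutants. The value for Dicer mutants turned to 0.0019 without Dicer mutant 4, and that between the mutants turned to 0.01 without it.

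Gene symbols do not always give the subunit. Mrps30 and Mrps18a are built into the large subunit despite their names, and Mrps36 belongs to the 2-oxoglutarate dehydrogenase complex. Mrps30 differed by -0.10 in Yy1 mutants (adjusted p = 0.596) and by -0.10 in Dicer mutants (adjusted p = 0.564). Mrps36 differed by -0.10 (adjusted p = 0.701) and -0.21 (adjusted p = 0.297). With the genes regrouped by structure into 45 large and 25 small subunit genes, the median differences in Yy1 mutants were -0.07 and -0.06, and in Dicer mutants -0.11 and -0.08.

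The members were also divided by descent. Of the 43 with a bacterial counterpart, 30 were negative in Yy1 mutants and 34 in Dicer mutants, with medians of -0.06 and -0.11. Of the 27 without one, 23 were negative in each mutant, with medians of -0.07 and -0.08. In Yy1 mutants Mrpl35 was the called gene with a bacterial counterpart and Mrpl52 the one without, and in Dicer mutants these were Mrpl11 and Mrps25. In the comparison of the mutants Mrps18b was grouped with the genes without a counterpart, since it is an added protein in the mammalian ribosome although related to S18.

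Among the 8 other members with more than 1 probe set (Mrpl10, Mrpl12, Mrpl36, Mrpl47, Mrps16, Mrps17, Mrps18c and Mrps5), the second set was dimmer in each. For Mrps17 the chosen set differed by -0.29 in Dicer mutants and the second by 0.15. For Mrpl10 these were -0.20 and -0.06, and for Mrpl47, a gene with a second set of wide spread, 0.12 and 0.45. The dimmer Mrpl47 set had 4.50 on Yy1 mutant 2 and 5.45 to 5.94 on the other Yy1 mutants. Mrpl12 (-0.27 and -0.14), Mrpl36 (-0.23 and -0.04), Mrps16 (-0.08 and -0.14) and Mrps5 (-0.08 and -0.25) were lower on both sets in Dicer mutants. Both Mrpl36 sets were dim, averaging 5.94 and 5.26 over all arrays, below every array median. For Mrps18c the sets differed in sign (-0.06 and 0.10).

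The 3 measured subunits of the mitochondrial ribosome with other symbols had 0 calls in either mutant by limma, and 0 had an unadjusted p under 0.05. Dap3, a GTP-binding protein of the small subunit, differed by -0.02 in Yy1 mutants (adjusted p = 0.947) and -0.12 in Dicer mutants (adjusted p = 0.346). Gadd45gip1, a large subunit protein, differed by -0.18 (adjusted p = 0.552) and -0.03 (adjusted p = 0.935). Ptcd3, an RNA-binding repeat protein of the small subunit, differed by 0.05 (adjusted p = 0.838) and -0.02 (adjusted p = 0.930).

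Genes that act with the ribosome were called at shares of 0% to 5.56% per list, against 6.61% of all genes in Yy1 mutants and 8.75% in Dicer mutants. Of 21 translation factors and associated genes 1 rose in Yy1 mutants, Guf1, the mitochondrial relative of bacterial elongation factor 4. It averaged 8.38 ± 0.16 in Yy1 mutants and 8.05 ± 0.09 in controls (SD, n = 4 each, limma adjusted p = 0.0433). In Dicer mutants 1 of the 21 fell, Letm1, an inner membrane protein counted among the associated genes and not a translation factor. It averaged 7.88 ± 0.06 in Dicer mutants and 8.21 ± 0.10 in controls (limma adjusted p = 0.0101). Tufm, the elongation factor that delivers charged transfer RNAs, differed by -0.20 in Dicer mutants (adjusted p = 0.0739). Of 26 assembly genes 1 fell in Yy1 mutants, Rpusd4, a pseudouridine synthase of the large ribosomal RNA (-0.28, adjusted p = 0.0140), and 1 fell in Dicer mutants, Rcc1l (-0.22, adjusted p = 0.0386). Eral1, a chaperone of the small ribosomal RNA, differed by -0.22 in Yy1 mutants (adjusted p = 0.0868), and Spg7 by -0.16 in Dicer mutants (adjusted p = 0.111).

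Of 18 mitochondrial transfer RNA synthetases 0 were called in Yy1 mutants by limma. An unadjusted p under 0.05 was found for 4 (22.2%, against 19.2% of all genes), among them Vars2 (-0.22, adjusted p = 0.141) and Ears2 (-0.18, adjusted p = 0.166). In Dicer mutants 1 of 18 fell, Vars2, the valine enzyme (-0.31, adjusted p = 0.0260), and Hars2, the histidine enzyme, had -0.25 (adjusted p = 0.0607). Among 21 genes of mitochondrial transcription and RNA handling, 0 were called in either mutant. At an unadjusted p under 0.05, where 19.2% of all genes stood in Yy1 mutants and 22.3% in Dicer mutants, were 3 (14.3%) in each. Of these Mterf2 differed by 0.31 (adjusted p = 0.170) and Pnpt1, an RNA-degrading enzyme, by -0.20 (adjusted p = 0.162) in Yy1 mutants. In Dicer mutants Tfb2m, a transcription initiation factor, differed by 0.20 (adjusted p = 0.111) and Twnk, the DNA helicase, by -0.16 (adjusted p = 0.173).

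Among 18 regulators of mitochondrial and ribosome biogenesis, a list that includes Yy1 itself, 1 was called in each mutant. Both encode growth-promoting transcription factors of the Myc family. At an unadjusted p under 0.05 stood 7 of the 18 in Yy1 mutants (38.9%, against 19.2% of all genes), 5 lower and 2 higher. In Dicer mutants 3 stood there (16.7%, against 22.3%). Mycn had 6.56, 6.74, 6.48 and 6.79 in Yy1 mutants, 7.51, 7.14, 7.21 and 7.12 in Dicer mutants and 7.47, 7.43, 7.21 and 7.36 in controls. The Yy1 mutants lay below all other arrays, with a difference from control of -0.72 (SE 0.101, limma adjusted p = 0.0006). Myc fell in Dicer mutants, at 9.28, 9.27, 9.01 and 9.07, against 9.51, 9.47, 9.32 and 9.37 in controls (-0.26, adjusted p = 0.0492), and its difference in Yy1 mutants was 0.18 (adjusted p = 0.202). Ppard, a nuclear receptor of lipid metabolism, had -0.27 in Dicer mutants (adjusted p = 0.0873). Among the calls in these related lists, that of Mycn was kept in all 21 alternative fits (limma adjusted p of 9.36e-05 to 0.0172). The calls of Guf1, Rcc1l and Myc were each lost in 13 of the 21 and that of Vars2 in 7, with adjusted p of up to 0.124, 0.119, 0.2 and 0.117 in that order. Those of Letm1 (0.0519) and Rpusd4 (0.192) were lost in 1, without the arrays high in Y-linked genes.

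The cytosolic ribosome and the respiratory chain were counted the same way. Of 57 cytosolic ribosomal protein genes 1 fell in Yy1 mutants (Rpl17), while in Dicer mutants 1 fell (Rps15) and 1 rose (Rps13, whose control SD was 2.09). These were 1.75% of the list in Yy1 mutants, against 6.61% of all genes, and 3.51% in Dicer mutants, against 8.75%. The median differences of the cytosolic genes were 0.06 in Yy1 mutants and -0.02 in Dicer mutants, beside -0.07 and -0.09 for the mitochondrial family. The mitochondrial transfer RNA synthetases had medians of -0.07 and -0.09 as well, with 15 of 18 negative in each mutant. Of 74 nuclear subunits of the respiratory chain and ATP synthase 1, Cox6b2, rose in each mutant. That is 1.35% of the list, again below the shares of all genes, and the medians were 0.01 and -0.04. Of these calls Rpl17 was lost in 1 of 21 alternative fits, Rps13 in 13 of 21, Rps15 in 13 of the 20 that tested it, and Cox6b2 in 6 of 21 in Yy1 mutants and 8 of 21 in Dicer mutants.

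The start regions of the members were searched for 3 motifs, each as its exact letters on either strand. They were AAGATGGC for YY1, CCGGAAGT for Ets factors such as the GABP subunit Gabpa, and GCATGCGC for Nrf1, a regulator of nuclear genes for mitochondrial proteins. RefSeq gave a start region for 62 of the 71 members. The YY1 motif was in 12 of 62 (19.4%), against 3.71% of 15378 measured protein-coding genes and 3.19% of all 27025 genes of the table. The Ets motif was in 10 of 62 (16.1%), against 5.88% and 4.31%, and the Nrf1 motif in 7 of 62 (11.3%), against 4.22% and 3.05%. By subunit, the YY1 motif was in 6 of 37 large and 6 of 25 small subunit genes, and the Nrf1 motif in 6 of 37 large and 1 of 25 small subunit genes.

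The 12 YY1 motifs lay in 12 genes, and 8 of them read along the strand of the gene. All 8 of those were downstream of the annotated start. They are printed with up to 10 bases on either side and the motif in capitals, because 8 of 62 members hold the motif in this placement (12.9%), against 1.62% of the measured protein-coding genes.
Mrpl35: ggcaggctgcAAGATGGCggcttccatc
Mrpl37: tgcacgggcaAAGATGGCggcgtccagg
Mrpl42: agattgaagcAAGATGGCgagcgcgcgg
Mrpl49: ttgaggcgccAAGATGGCagcagcggtg
Mrps18a: ggtgcgttccAAGATGGCggccctcagg
Mrps24: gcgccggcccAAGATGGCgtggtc
Mrps27: ggtgcgctccAAGATGGCggctcccatg
Mrps7: gacagcggccAAGATGGCtgcccccgcg
Their positions in GRCm38.p6 are chr6:71823744-71823771 (minus strand) for Mrpl35, chr4:107066823-107066850 (minus strand) for Mrpl37, chr10:95501905-95501932 (minus strand) for Mrpl42, chr19:6057722-6057749 (minus strand) for Mrpl49, chr17:46111005-46111032 (plus strand) for Mrps18a, chr11:5707652-5707675 (minus strand) for Mrps24, chr13:99344790-99344817 (plus strand) for Mrps27, chr11:115604148-115604175 (plus strand) for Mrps7. The sequence goes on as ggc right after the motif in 5 of the 12 genes, among them Mrpl35, Mrpl37, Mrps18a and Mrps27. The letters of the motif hold ATG, the triplet of start codons, and whether these copies overlie a translation start was not tested. In Mrpl32, Mrpl36, Mrps11 and Mrps12 the motif was on the opposite strand and upstream of the start. For Mrpl32, Mrps11 and Mrps12 it also lay downstream of the start of a neighbouring gene, on the strand of that neighbour. The motif began at -242, -107 and -199 from the start of the member in that order. The neighbours Psma2, Mrpl46 and Sars2 start 205, 42 and 147 bases away from the member. These copies therefore cannot be assigned to the member rather than to its neighbour.

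Whether the responses of members with and without a motif differ was not tested, and their medians are given as a description. Members with the YY1 motif had a median difference of -0.07 in Yy1 mutants (12 genes, 9 negative, 1 called, Mrpl35), and members without it -0.06 (50 genes, 36 negative, 1 called, Mrpl52). In Dicer mutants the medians were -0.13 with it (11 of 12 negative) and -0.09 without it (40 of 50 negative). Members with the Ets motif had a median of -0.08 in Yy1 mutants and those without it -0.07, and in Dicer mutants these were -0.11 (10 of 10 negative) and -0.09 (41 of 52 negative). The Nrf1 motif went with the widest gap of medians of the 3 motifs in both mutants, but only 7 members held it. Those 7 ran between -0.26 and 0.03 in Yy1 mutants and between -0.20 and 0.21 in Dicer mutants. Members with the Nrf1 motif had 0.00 in Yy1 mutants (4 of 7 negative) and those without it -0.07 (41 of 55 negative). In Dicer mutants members with the Nrf1 motif had -0.03 (4 of 7 negative) and those without it -0.11 (47 of 55 negative).

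**Figure D5:**
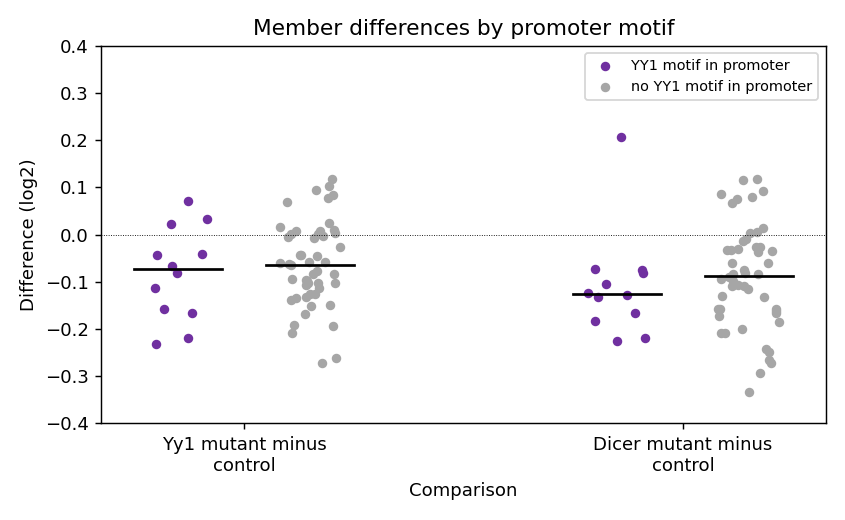
Difference in log2 expression (y axis) of the 62 members with a RefSeq start region, split by whether it holds the YY1 motif (purple, 12 genes) or not (grey, 50 genes), in Yy1 mutants and Dicer mutants against controls (x axis). Black lines are medians, at -0.07 and -0.06 in Yy1 mutants.

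Many members start near a gene on the other strand. A protein-coding gene starting within 1000 bases on the opposite strand, head to head, was found for 21 of 62 members (33.9%), against 1483 of 17491 protein-coding genes of the table (8.48%). Mrpl46 of the large subunit and Mrps11 of the small subunit start 42 bases apart and face away from each other. They differed by 0.00 and 0.02 in Yy1 mutants and by 0.09 and -0.13 in Dicer mutants, all short of the threshold. Mrps12 starts 147 bases away from Sars2, the mitochondrial serine transfer RNA synthetase, and Mrpl47 starts 308 bases away from Ndufb5, a subunit of respiratory complex I. Of the 21 neighbours, Hira, a histone chaperone 113 bases away from Mrpl40, was called in Dicer mutants (-0.22, limma adjusted p = 0.0319, lost in 8 of 21 alternative fits), while Mrpl40 itself differed by -0.03. The members lie on 17 chromosomes, most often on chromosome 11 with 11 genes.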

How the data were processed

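Total RNA of 12 embryonic mouse lung specimens was measured on single-channel biotin-labelled Affymetrix arrays, 4 per genotype. The labels give Trizol extraction and DNase treatment. The deposited values are log2 expression per probe set, already normalised by the authors. How they summarised and normalised the arrays, and the array build, is not given in the sources used here. That the log is to base 2 was judged by the range of values. Of 41345 probe sets, 23521 had exactly 1 symbol in the platform annotation, 1814 had several and 16010 had none. Of those with 1 symbol, 23328 matched RefSeq by Entrez identifier. Each of the 22180 genes was taken from its probe set with the highest mean, with no filter or further normalisation.

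The 3 genotypes were fitted together with limma 3.58.1 (R 4.3.3, 9 residual degrees of freedom, empirical Bayes, two-sided). Calls needed an adjusted p under 0.05 (Benjamini-Hochberg, across the whole table). The procedure was tested on simulated data with independent noise for each gene and array, and the outcome is not given here. Every called member and, per comparison, the 4 smallest p of each subunit, the 2 largest differences each way, members with several probe sets or an array that stood apart, members whose name and place in the ribosome differ, and of each related list the called genes and the 2 smallest p could be named; neighbours in the genome and genes of the cytosolic ribosome and respiratory chain were named after their values were seen. The members and lists were chosen with earlier results of these data known. Start regions came from RefSeq (GRCm38.p6), and 9 members had none in that table.

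Alternatives covered quantile normalisation, equal array medians, the dimmest 30% of genes removed, the mean of all probe sets, an intensity trend with a robust prior, only the genotypes compared, array weights, the replicate number as a block and each array left out, and, added later, leaving out 3 arrays with raised Y-linked genes. The labels state no pairing of arrays. The 4 arrays per genotype limit the precision. Tables and plots used Python 3.11.15, pandas 2.3.3, numpy 2.4.6 and matplotlib 3.10.9.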

Additional observations from a re-analysis of the deposited data

Results flagged for a closer look

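On 13 occasions, among 213 groups of 4 arrays, 1 array stood far from the other 3 for a member (by Dixon's criterion), where chance gives about 1 in 20 groups. Yy1 mutant 2 was the array in 4 of them, low for Mrpl42 (6.73), Mrpl47 (6.51), Mrps10 (7.62) and Mrps11 (8.27). Yy1 mutant 3 was high for Mrps14 (6.46) and Yy1 mutant 1 for Mrps23 (7.76). Dicer mutant 1 was high for Mrpl35 (8.12), Mrpl40 (7.81) and Mrps18b (8.17), and Dicer mutant 2 for Mrps21 (7.64). Control 1 was high for Mrpl4 (8.44) and Mrpl58 (9.03), and control 3 was low for Mrps18c (6.48). The effect of the Yy1 genotype on Mrps18b differed from that of the Dicer genotype by -0.31 (limma adjusted p = 0.0495).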

How the results depend on the processing

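The number of members called moved with the processing in all 3 comparisons, against 2 in Yy1 mutants, 2 in Dicer mutants and 1 between the mutants as reported. The share of all genes called moved too, and is given in brackets except for the fits that left out 1 array. In Yy1 mutants the number of members was 4 with the dimmest 30% of genes removed (11.8% of all genes). It was 3 with an intensity trend and robust prior (8.53%), where Mrpl9 joined. It was 0 with only the genotypes compared (5.01%), with array weights (8.13%) and once the arrays high in Y-linked genes were left out (2.73%). In each of these fits that gave 0, 5 members had an unadjusted p under 0.05. Dicer mutants had 4 with quantile normalisation (10.1%). They had 5 with the dimmest genes removed (15.3%), with the intensity trend and robust prior (11.1%) and with array weights (12.6%). They had 1 with equal array medians (8.08%), with only the genotypes compared (6.83%) and once the arrays high in Y-linked genes were left out (4.40%). Between the mutants it was 2 with the intensity trend (6.51%) and with array weights (8.14%), where Mrpl10 joined Mrps18b. With quantile normalisation (5.55%) the 1 gene called was Mrpl10, higher, in place of Mrps18b. The count was 0 with the mean of all probe sets (4.79%), with only the genotypes compared (4.64%) and with the arrays high in Y-linked genes left out (1.96%). In that order 5, 11 and 5 members had an unadjusted p under 0.05. Leaving out 1 array at a time gave 0 to 2 calls in Yy1 mutants, 0 to 3 in Dicer mutants and 0 to 1 between the mutants. The median difference of large minus small subunit genes ran between -0.031 and -0.00318 in Yy1 mutants, between -0.0402 and 0.0019 in Dicer mutants and between -0.0607 and 0.0108 between the mutants with 1 array left out. With the arrays high in Y-linked genes left out it was 0.0019 in Dicer mutants. Ptcd3 changed sign in Dicer mutants with the mean of probe sets (0.047), without control 1 (0.0157) and without Dicer mutant 1 (0.000452), and in Yy1 mutants without Yy1 mutant 4 (-0.0173). With 1 array left out it ran between -0.051 and 0.0157 in Dicer mutants and between -0.0173 and 0.154 in Yy1 mutants. The causes were not tested.

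Replicate numbers are shared across genotypes, and the deviations of arrays with the same number were weakly correlated (-0.161 to 0.190). Such correlations cannot show whether these arrays share anything beyond the number. With the number as a replicate block the calls were 0 in Yy1 mutants (6 with an unadjusted p under 0.05), 2 in Dicer mutants and 0 between the mutants (8). The shares of all genes called were 5.87%, 8.33% and 4.50% in that order.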
